A study of Mus musculus with 192 samples.

Results

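The genes described here are 6 components of inflammasomes and of pyroptosis, the inflammatory cell death that inflammasomes set off: Nlrp3, Nlrc4, Pycard, Casp1, Casp4 and Gsdmd. They were chosen by name, as 6 of the 23481 genes in the count table, by a rule that uses no measured value, although earlier results of these data were known when the rule was made. All 6 were present in the table, and 5 of them passed the filter on low counts that left 4720 genes for testing. Nlrc4 did not pass, and it is described by its counts and by a fit without that filter. RNA was sequenced from mouse dendritic cells, the immune cells that take up microbes and present their antigens, after culture of marrow in GM-CSF, a myeloid growth factor, at 15 ng/ml. The marrow came from female C57BL/6J mice of 6 to 8 weeks, and wells of 100000 cells were stimulated for 6 hours with ligands of pattern recognition receptors, the receptors by which innate immune cells recognise microbes and viruses. The ligands are named as in the labels: PAM, LPS (bacterial lipopolysaccharide), HMW, SeV, CpGB, Zymosan (in a depleted form by its label) and cGAMP, a cyclic dinucleotide. The libraries form 64 groups of 3, namely Ctrl, 7 groups with 1 ligand, 21 with every pair of ligands and 35 with every triplet. No group carries an allele or a further agent, and every group shares the GM-CSF culture. The labels do not say whether the 3 libraries of a group came from separate mice or cultures, so the tests measure the spread between these libraries, which may be technical.

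An inflammasome is a cytosolic complex in which a sensor protein recruits the adaptor ASC, encoded by Pycard, and through it the protease caspase-1, encoded by Casp1. NLRP3 responds to damage and ion fluxes, and NLRC4 responds to bacterial flagellin and secretion-system proteins delivered by NAIP partners. Caspase-1 cuts the precursors of the cytokines encoded by Il1b and Il18, and it cuts gasdermin D, encoded by Gsdmd, whose amino-terminal part forms pores in the plasma membrane. Casp4 is the mouse gene for the protease of the non-canonical pathway, caspase-11, which binds cytosolic lipopolysaccharide directly and also cuts gasdermin D. In macrophages and dendritic cells, transcription of Nlrp3, Casp4 and Il1b is known as the priming step, which precedes the assembly of the complex. The libraries measure RNA only, so assembly, cleavage and cell death were not measured.

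The 6 genes lie at 5 places of the mouse genome (build mm10, GENCODE M21 annotation), since Casp1 and Casp4 are neighbours. Casp1 (chr9:5298517-5307265) ends 1562 bases before Casp4 (chr9:5308828-5336783) begins, and both are on the plus strand. Nlrp3 is at chr11:59541568-59566956 and Gsdmd at chr15:75862327-75867408, both on the plus strand. Nlrc4 (chr17:74425438-74459142) and Pycard (chr7:127989708-127993867) are on the minus strand. A gene model on the opposite strand, Gm45205, overlaps Pycard, and a processed pseudogene overlaps Nlrc4, but neither has a row in the count table. Promoter sequences from RefSeq (build GRCm38, the same as mm10) were found for 5 of the 6 genes. The 250 bases before the start site are given for the 4 genes whose levels moved most together or most apart, 5′ to 3′ on the strand of the gene. Capitals mark matches to 2 motifs on either strand, the loose NF-kB motif (GGG and CC with any 5 bases between) and the PU.1 motif GAGGAAG.
Casp1, chr9:5298267-5298516: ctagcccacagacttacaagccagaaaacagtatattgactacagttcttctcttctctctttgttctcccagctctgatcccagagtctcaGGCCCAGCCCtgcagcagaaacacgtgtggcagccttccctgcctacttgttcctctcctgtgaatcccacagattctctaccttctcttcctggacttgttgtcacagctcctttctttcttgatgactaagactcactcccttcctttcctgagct
Casp4, chr9:5308599-5308848: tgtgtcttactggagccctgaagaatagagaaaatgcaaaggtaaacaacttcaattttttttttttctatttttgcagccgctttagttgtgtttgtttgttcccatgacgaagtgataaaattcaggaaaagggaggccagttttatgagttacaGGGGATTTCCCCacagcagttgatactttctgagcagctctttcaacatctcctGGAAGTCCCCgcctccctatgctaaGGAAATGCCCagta
Nlrp3, chr11:59541319-59541568: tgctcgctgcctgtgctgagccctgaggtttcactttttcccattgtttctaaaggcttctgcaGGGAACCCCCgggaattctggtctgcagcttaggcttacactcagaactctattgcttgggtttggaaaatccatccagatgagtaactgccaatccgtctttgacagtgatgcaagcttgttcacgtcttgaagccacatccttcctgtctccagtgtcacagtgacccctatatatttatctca
Pycard, chr7:127993868-127994117: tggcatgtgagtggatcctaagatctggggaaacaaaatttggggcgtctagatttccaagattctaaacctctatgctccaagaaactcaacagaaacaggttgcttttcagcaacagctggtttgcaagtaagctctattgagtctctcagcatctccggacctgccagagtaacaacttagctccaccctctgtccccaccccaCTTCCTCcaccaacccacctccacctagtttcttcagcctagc
Capitals in Casp4 cover 6 matches to the loose NF-kB motif, of which 4 overlap one another in a single run. Nlrp3 has that motif at 1 place, where it matches on both strands, and Casp1 has 1 match. Pycard has none, and it has 1 match to the PU.1 motif on the opposite strand. The loose NF-kB motif occurs in 45.8% of all 32851 RefSeq promoter windows of the same length, and the PU.1 motif in 10.6%. A stricter NF-kB motif (GGGA and TTTCC with any base between, in 0.356% of windows), the interferon-response motif (GAAA repeated after any 2 bases, 2.98%), the GAS motif TTCNNNGAA (7.02%) and the AP-1 motif TGANTCA (6.75%) had no match in these 4 windows. A match describes letters in a window of this length and does not show that a factor binds there. RefSeq lists a further start for Nlrp3 and for Casp4, and the ends of the printed Nlrp3 and Casp4 windows reach or run past the start that GENCODE gives. The window of the further Nlrp3 start had 0 matches to the loose NF-kB motif and 2 to the PU.1 motif. That of Casp4 overlaps the printed window and had the same 6 NF-kB matches.

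Library totals ranged from 46564 to 610234 UMIs, where a UMI marks 1 original cDNA molecule, and the Ctrl libraries were shallow, at 61823 to 89530. Over the 3 Ctrl libraries together, Casp4 had 10 UMIs, Nlrp3 12, Casp1 16, Gsdmd 22 and Pycard 57, so each fold change against Ctrl rests on few molecules. The labelled cell type was checked against its markers. Itgax, H2-Ab1, Cd74, Lyz2, Csf1r, Cd68 and Mrc1 were counted in every library, while the dendritic cell genes Zbtb46 and Flt3 had only 99 and 95 UMIs in all libraries together. The 9 dendritic cell and macrophage markers in the table summed to 8687 to 15060 CPM (counts scaled to a common total of UMIs in tested genes, as counts per 1e+06), with 13720 to 15060 in the Ctrl libraries and a median of 10920 over the 64 group means. The 8 neutrophil markers in the table summed to 378 to 1126 CPM. Among them S100a8, S100a9 and Ngp were counted in every library, with 7066, 10581 and 4591 UMIs in all, Ltf and Camp in 189 and 188 libraries, and Mpo and Elane had 15 and 11 UMIs. Retnlg had 372 UMIs in 153 libraries, with its highest group mean in Ctrl (45.07 CPM). The 2 eosinophil markers summed to 9.202 to 123.9 CPM, with Prg2 counted in every library (1678 UMIs). The 3 T cell markers summed to at most 8.85 CPM in any library, and all 3 erythroid markers were at 0. The highest library sums were 27.61 CPM for B cell markers and 26.18 CPM for mast cell or basophil markers. They were 9.556 CPM for stromal and 5.106 CPM for NK cell markers. The part of cell composition in the results was not tested, and in bulk samples fewer cells of a type and less RNA per cell cannot be told apart.

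Nlrp3, the sensor gene, was lowest in Ctrl among all 64 groups and rose with 6 of the 7 single ligands. Its Ctrl libraries held 27.7, 87.3 and 28.8 CPM. With PAM it reached 282, 367 and 217 CPM, and with LPS 223, 266 and 255 CPM. With CpGB the libraries held 155, 276 and 235 CPM, with cGAMP 257, 140 and 141 CPM, with Zymosan 110, 115 and 131 CPM and with SeV 124, 115 and 103 CPM. Every library of these 6 groups was above every Ctrl library. With HMW the values were 83.2, 112 and 46.5 CPM and overlapped Ctrl. The log2 fold changes against Ctrl were 2.61 (SE 0.37, adjusted p = 8.42e-10) with PAM, 2.40 with LPS, 2.29 with CpGB, 1.85 with cGAMP, 1.35 with Zymosan and 1.24 with SeV, all with adjusted p under the threshold of 0.05. HMW gave 0.77 with an adjusted p of 0.681, and 0.40 (without HMW replicate 2), 0.48 (without Ctrl replicate 3) and 1.52 (without Ctrl replicate 2) with single libraries left out, none of them called. The Zymosan and SeV calls depended on single libraries: without Ctrl replicate 3 they stood at 1.06 and 0.98 (adjusted p of 0.241 and 0.222), without Ctrl replicate 2 at 2.10 and 2.02, and leaving out Ctrl replicate 1, either of 2 libraries of the ligand itself, or using DESeq2 also ended each call (adjusted p from 0.0525 to 0.164). Both calls ended as well with RLE scaling (adjusted p of 0.0625 and 0.0638), with library size alone (0.0636 and 0.0834) and with every library thinned to the lowest total (0.667 and 0.451). Thinning also ended the cGAMP call, at 1.08 (adjusted p = 0.0944). Between single ligands themselves, PAM and LPS were each higher than HMW, Zymosan and SeV by a log2 difference of 1.05 to 1.84. The levels with PAM, LPS and CpGB did not differ from one neighbour to the next in the order (adjusted p of 0.528 and 0.865).

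Nlrc4, the other sensor gene, was close to the limit of detection. Over the whole series 305 UMIs were counted, in 140 libraries, with at most 10 in any of them. Its Ctrl libraries had 1, 1 and 2 UMIs, those with PAM 2, 2 and 1, and those with LPS 0, 1 and 5. No direction can be read from such counts in single groups. Pooled over groups, Nlrc4 stood at 7.76 CPM in the 66 libraries with LPS and at 10.2 CPM in the 126 without, a ratio of 0.759 (95% exact interval 0.584 to 0.979, counting error only). For the other 6 ligands the interval of that ratio included 1, from 0.781 (0.6 to 1.01) with cGAMP to 1.1 (0.864 to 1.4) with SeV. In an edgeR fit without the filter on low counts, which uses the spread between libraries, the mean effect of adding a ligand to matched sets was called for cGAMP (-0.70, SE 0.24, adjusted p = 0.0189) and not for LPS (-0.56, SE 0.26, adjusted p = 0.134). That fit called none of the comparisons of Nlrc4 with Ctrl. No count was seen in the 3 libraries with PAM, HMW and cGAMP together, which allows a level of up to 4.62 CPM at 3 counts over the group.

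Pycard, the adaptor gene, went the opposite way and fell with PAM and LPS. The Ctrl libraries held 249, 187 and 230 CPM, and no single ligand had a higher mean. With PAM they held 91.9, 65.4 and 72.2 CPM and with LPS 112, 133 and 71.6 CPM, all under the lowest Ctrl library. With SeV (220, 199 and 244 CPM) and cGAMP (174, 216 and 227 CPM) the libraries overlapped those of Ctrl. The log2 fold changes were -1.55 (SE 0.32, adjusted p = 3.86e-05) with PAM and -1.10 (SE 0.30, adjusted p = 0.00182) with LPS. The LPS call rested on LPS replicate 3, without which it was -0.75 (adjusted p = 0.0818), and leaving out any 1 of 5 other libraries (Ctrl replicate 1, PAM replicates 1 and 2, Zymosan replicate 2, CpGB replicate 2) gave -0.97 to -0.99, just under the fold threshold. In all, 8 of 27 settings with libraries left out, singly or as 1 replicate number of every group, ended the LPS call. Without the filter on low counts it was -0.85 (adjusted p = 0.0703), and thinned -0.96 (adjusted p = 0.0604). Zymosan (-0.93, adjusted p = 0.0296) and CpGB (-0.89, adjusted p = 0.0177) stood short of the fold threshold of 1 with TMM scaling. Zymosan was called lower with RLE scaling (-1.06, adjusted p = 0.00907), library size alone (-1.07), DESeq2 (-1.07) and without Zymosan replicate 3 (-1.03), and CpGB with library size alone (-1.11, adjusted p = 0.00176) and when thinned (-1.17). Without CpGB replicate 2 the CpGB value was -0.59 (adjusted p = 0.226). SeV and cGAMP gave 0.01 and -0.09, with adjusted p of 0.993 and 0.867. Compared directly, Pycard was lower with PAM than with SeV by 1.56 and than with cGAMP by 1.46 on the log2 scale (adjusted p of 1.58e-06 and 9.24e-06).

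Casp1 and Casp4, the protease genes, rose with LPS, SeV, cGAMP and CpGB. The Ctrl libraries held 69.3, 74.8 and 48.0 CPM of Casp1. Casp1 reached 335, 349 and 425 CPM with LPS, 373, 368 and 352 with SeV, 202, 251 and 325 with cGAMP and 243, 260 and 235 with CpGB. These 12 libraries did not overlap Ctrl. With PAM, which gave the largest rise of Nlrp3, Casp1 was at 105, 100.5 and 94.5 CPM. These libraries and those with HMW (99.8 to 130 CPM) were also above every Ctrl library, while those with Zymosan (55.98 to 204.8 CPM) overlapped Ctrl. The log2 fold changes of Casp1 were 2.57 (SE 0.33, adjusted p = 6.05e-12) with LPS, 2.52 with SeV, 2.07 with cGAMP and 1.97 with CpGB, against 0.67 with PAM (adjusted p = 0.315), 0.91 with HMW and 0.86 with Zymosan. The Zymosan value rested on single libraries, at 0.15 without Zymosan replicate 2 and 1.35 (adjusted p = 0.0251, called) without Zymosan replicate 3. The gap between PAM and LPS was itself large, with Casp1 lower with PAM by 1.90 on the log2 scale (SE 0.24, adjusted p = 5.44e-12). In the order of levels, the step from Zymosan to CpGB was the only one between neighbours that passed the test (1.11, adjusted p = 0.000328).

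Casp4 held 83.1, 12.5 and 28.8 CPM in Ctrl, on 6, 1 and 3 UMIs, which makes its baseline the least precise of the 5 tested genes. It held 387, 249 and 224 CPM with LPS, 293, 269 and 184 with cGAMP, 210, 207 and 183 with SeV and 136, 158 and 244 with CpGB. All 12 libraries were above those of Ctrl. PAM gave 131, 90.5 and 72.2 CPM, which overlapped Ctrl in 1 library. The log2 fold changes were 2.80 (SE 0.39, adjusted p = 1.38e-10) with LPS, 2.63 with cGAMP, 2.31 with SeV, 2.24 with CpGB and 1.29 with PAM (adjusted p = 0.0423), while HMW (0.78) and Zymosan (0.23) were not called. The HMW value ran from 0.11 without replicate 2 of every group to 1.78 without replicate 1, and was 0.44 without Ctrl replicate 2, 1.63 without Ctrl replicate 1 and 0.49 without HMW replicate 2. The PAM call was lost without Ctrl replicate 2 (0.94, adjusted p = 0.24), Ctrl replicate 3 (1.08, adjusted p = 0.222) or PAM replicate 1 (1.09, adjusted p = 0.155), and the value was 2.14 without Ctrl replicate 1. It was also lost with RLE scaling, library size alone, DESeq2 and thinning (adjusted p from 0.0819 to 0.126). Without Ctrl, Casp4 was higher with LPS than with Zymosan by 2.57 (SE 0.31, adjusted p = 1.71e-13) and than with PAM by 1.52 on the log2 scale.

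Gsdmd, the gene of the pore-forming protein, varied least of the genes that rose. Its Ctrl libraries held 83.1, 112 and 67.2 CPM. The libraries with LPS held 231, 161 and 201 CPM, and those with SeV 143, 199 and 173.5 CPM, all above Ctrl. With PAM (105, 40.2 and 100 CPM) and Zymosan (55.2, 89.6 and 79.3 CPM) the libraries overlapped Ctrl. Its log2 fold change was 1.18 with LPS (SE 0.33, adjusted p = 0.00283) and SeV gave 1.01 (SE 0.35, adjusted p = 0.026). The SeV call was lost without Ctrl replicate 1, Ctrl replicate 3 or SeV replicate 2 (adjusted p of 0.0565, 0.145 and 0.0665), with DESeq2 (0.0884), RLE scaling (0.056) and library size alone (0.0768). It was also lost without replicate 3 of every group (0.82), which makes 4 of 27 settings with libraries left out. The LPS call was lost with library size alone as the scaling (0.88) and without replicate 3 of every group (0.98). With every library thinned to the lowest total, the LPS value was -0.0056 (adjusted p = 0.995) and the SeV value 0.19 (adjusted p = 0.809), and neither was called. Thinning was a single random draw of UMIs from each library, so the spread between draws is not known. CpGB gave 0.89 with an adjusted p of 0.0528, was called in 6 of 27 settings with libraries left out (up to 1.21 without Ctrl replicate 2, adjusted p = 0.0247) and without the filter on low counts (1.08), and was -0.15 when thinned. Gsdmd was lower with PAM than with LPS by 1.29 (adjusted p = 8.12e-05).

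Over the 5 tested genes and 7 ligands, 17 of 35 comparisons with Ctrl were called higher and 2 lower, beside 8.70% higher and 4.95% lower over all 4720 genes and the same contrasts. A comparison was called when its adjusted p was below 0.05 and its log2 fold change was 1 or more in size. Of the 21 direct comparisons between single ligands per gene, 105 in all, 43 were called (12 higher and 31 lower for the ligand named earlier in the order of the labels), against 6.24% and 7.44% over all genes. With every library thinned to the lowest total, further called values stayed called but were over 1.5 times smaller: Nlrp3 was at 1.68 with PAM, 1.51 with LPS and 1.44 with CpGB, Casp1 at 1.68 with LPS and 1.21 with CpGB, and Casp4 at 1.51 with SeV. The median log2 fold change of the 5 genes was 2.40 with LPS, 1.97 with CpGB, 1.85 with cGAMP, 1.24 with SeV, 0.77 with HMW, 0.67 with PAM and 0.23 with Zymosan, where the medians of all tested genes ran from -0.09 with cGAMP to 0.03 with HMW.

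**Figure D1:**
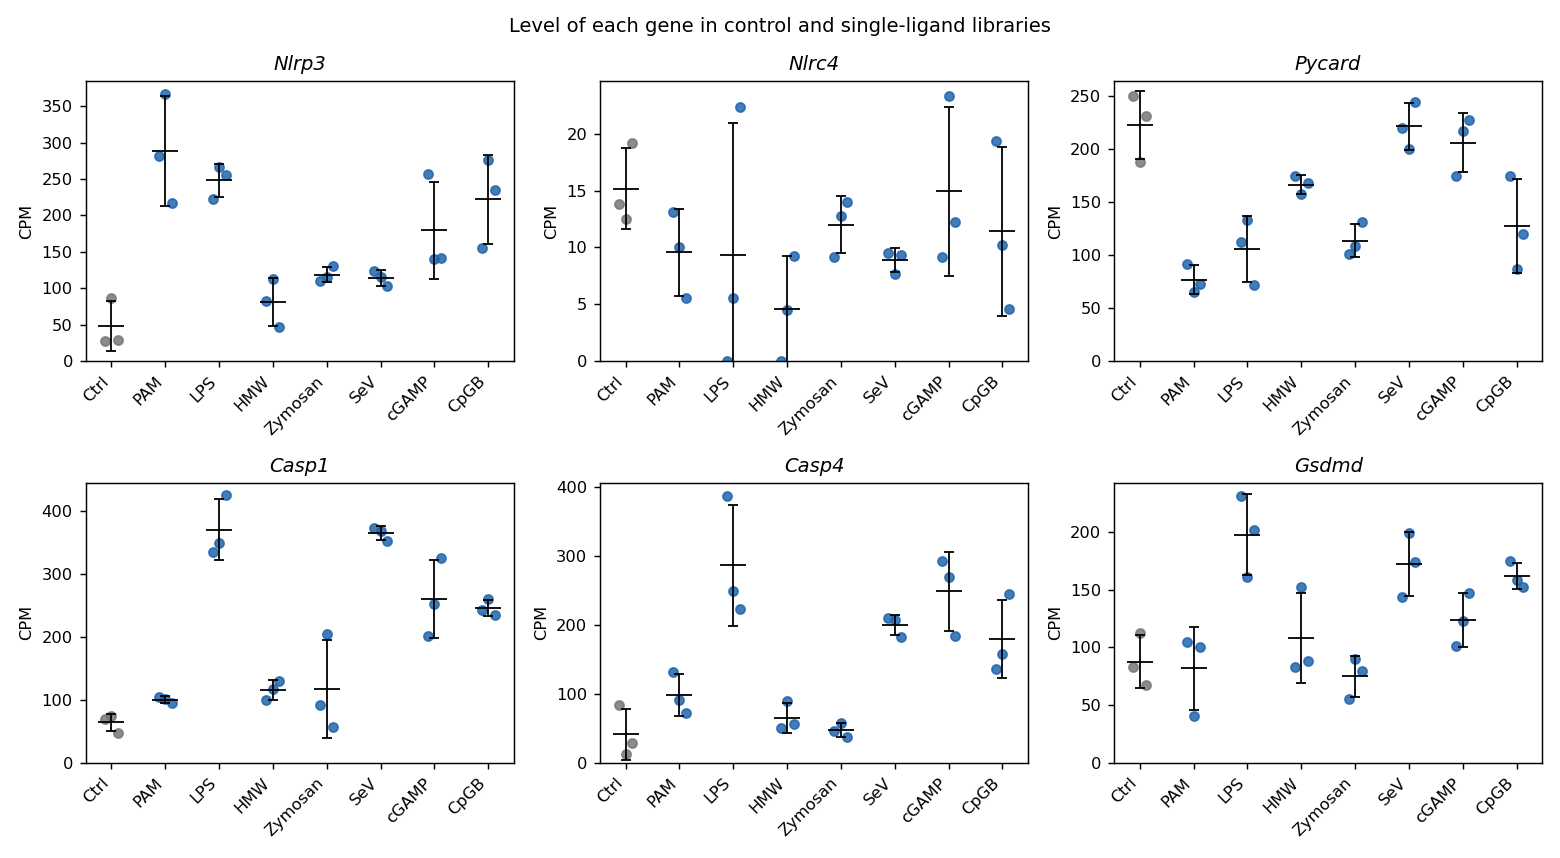
Level of each gene in CPM (vertical axis) in the 3 Ctrl libraries (grey) and the 3 libraries of each single ligand (blue), with bars for mean and SD. Nlrp3 is highest with PAM (217 to 367 CPM), where Casp1 is at 94.5 to 105 CPM and Pycard is lowest (65.4 to 91.9 CPM), and Nlrc4 is at most 23.4 CPM.

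In pairs and triplets the split between genes that rose and the adaptor that fell went on. Nlrp3 and Casp4 were called higher than Ctrl in all 56 combinations, and Casp1 in 55, the exception being PAM with Zymosan (log2 fold change 0.71). Gsdmd was called higher in 28, and Pycard was called lower in 34 and higher in none. The background in the same 56 contrasts was 14.9% higher and 9.54% lower, and 62 of 4720 genes (1.31%) were called higher in all 56. With RLE scaling that background was 12.9% higher and 12.7% lower, and with library size alone 10.9% and 18.1%, as the median over all genes moved from -0.04 to -0.21 and -0.40, while the 5 genes had 181 higher and 43 lower, and 168 and 49. All these contrasts share the 3 Ctrl libraries. Of the 63 stimulated groups, 61 had all their Nlrp3 libraries above all Ctrl libraries, 62 for Casp1, 60 for Casp4 and 45 for Gsdmd, and 56 had all Pycard libraries below, where over all genes 21.5% of such comparisons lay above and 17.8% below.

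The groups of highest level differed between the genes. Nlrp3 was highest with PAM, SeV and cGAMP together, at 434, 542 and 401 CPM, and next with PAM and cGAMP, at 415, 547 and 396 CPM. These 6 libraries were above every library with PAM alone. Casp4 was highest with PAM and LPS, at 383, 582 and 574 CPM, and Gsdmd was highest in the same pair, at 210, 283 and 305 CPM. Casp1 was highest with PAM and SeV, at 451, 373 and 421 CPM. Pycard was lowest with Zymosan, cGAMP and CpGB, at 34.8, 43.6 and 63.7 CPM on 4, 5 and 9 UMIs, and highest with HMW and SeV, at 204, 224 and 297 CPM, which overlapped Ctrl.

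**Figure D2:**
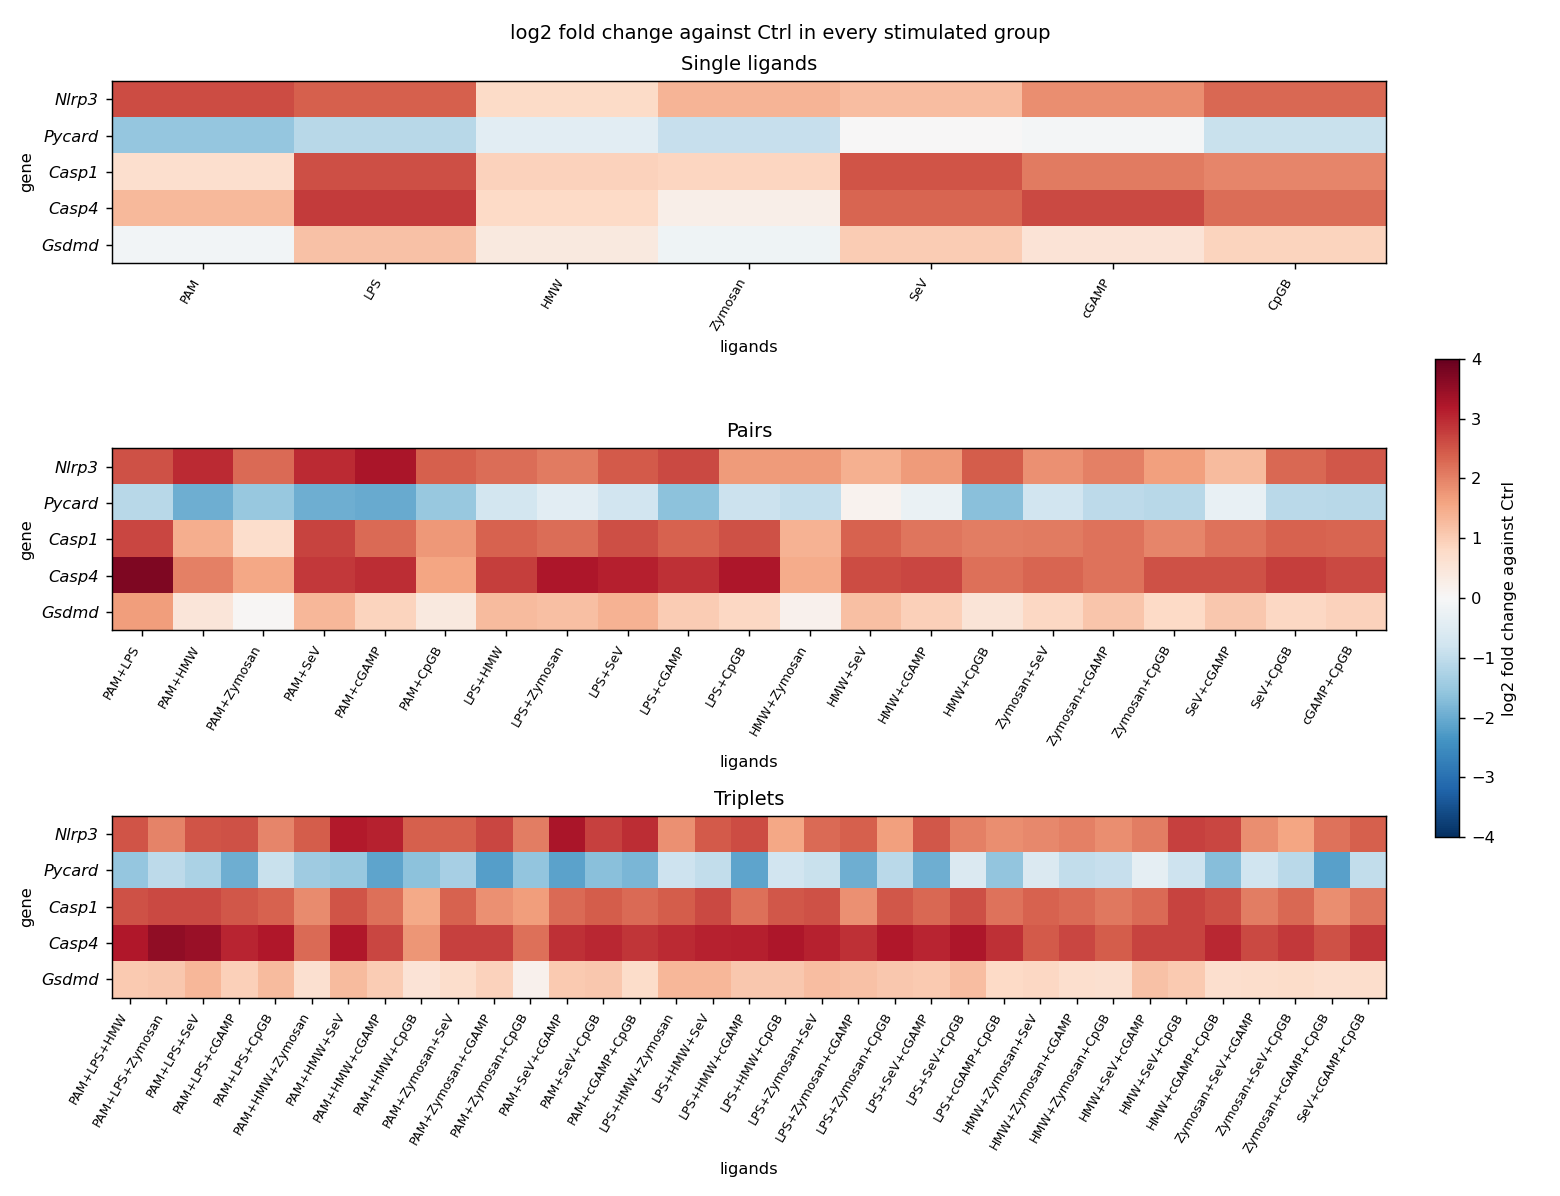
log2 fold change against Ctrl (colour, red higher, blue lower) of the 5 tested genes (rows) in all 63 stimulated groups (columns), with single ligands, pairs and triplets in separate panels. Nlrp3 and Casp4 are red in every pair and triplet, and Pycard is blue in most, with its lowest fitted value at -2.20.

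A comparison that leans little on the shallow Ctrl libraries is the mean effect of adding a ligand, taken over the 22 sets of 0, 1 or 2 other ligands to which it can be added. It uses 44 of the 64 groups per ligand, and it was called at an adjusted p under 0.05 with a mean log2 difference of at least 0.5. On this measure 7 of 35 effects on the 5 genes were called higher and 1 lower, against 8.39% and 5.53% of all genes. For Nlrp3 only PAM was called, at 0.82 (SE 0.05, adjusted p = 7.96e-36), while cGAMP (0.39) and LPS (0.27) passed the adjusted p and not the size. For Pycard only PAM was called, at -0.90 (SE 0.07, adjusted p = 3.9e-28), with cGAMP at -0.46 and CpGB at -0.37 short of the size. The cGAMP effect on Pycard was called with library size alone (-0.59), thinned (-0.53) and without replicate 2 of every group (-0.51), and the CpGB effect when thinned (-0.53). Casp1 was raised by LPS (0.67, SE 0.05) and SeV (0.61, SE 0.05). Casp4 was raised by LPS (1.12, SE 0.05, adjusted p = 3.52e-55), SeV (0.67) and cGAMP (0.62), while CpGB (0.47) was short of the size and passed it in 3 of 6 settings with libraries left out (up to 0.53 without replicate 1 of every group). Gsdmd was raised by LPS (0.53, SE 0.06, adjusted p = 1.98e-16). Thinned to equal totals, the Casp1 effects were 0.47 and 0.43 and short of the size, and the cGAMP effect on Casp4 was 0.48 with library size alone. The Gsdmd value lay at the size threshold, and it was 0.48 with RLE scaling, 0.39 with library size alone, 0.45 thinned and 0.49 when Ctrl was not used.

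The matched differences behind these means show how uniform each effect was. Pycard was lower with PAM than without in 22 of 22 sets, from -1.92 when PAM was added to SeV to -0.01 when it was added to HMW with CpGB, and the 3 libraries of both groups did not overlap in 10 (9.40% of such sets over all genes). Casp4 was higher with LPS in 22 of 22 sets, without overlap in 16 (15.0% over all genes), from 0.12 on PAM with cGAMP to 2.72 on Zymosan. Nlrp3 was higher with PAM in 19 of 22 sets, without overlap in 12 (10.8% over all genes), from 2.44 on Ctrl to -0.15 on LPS with Zymosan. In the 6 sets where PAM was added to LPS alone or to a pair that held LPS, the differences of Nlrp3 stayed between -0.15 and 0.29. The other called effects were less uniform than the first 2 named here. Casp1 was higher with LPS in 19 of 22 sets and with SeV in 18, and Gsdmd with LPS in 18. Casp4 was higher with SeV in 17 sets and with cGAMP in 17, and cGAMP gave -0.60 on PAM with LPS. The mean effects of HMW on the 5 genes lay between -0.11 and 0.20 and those of Zymosan between -0.22 and 0.10.

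**Figure D3:**
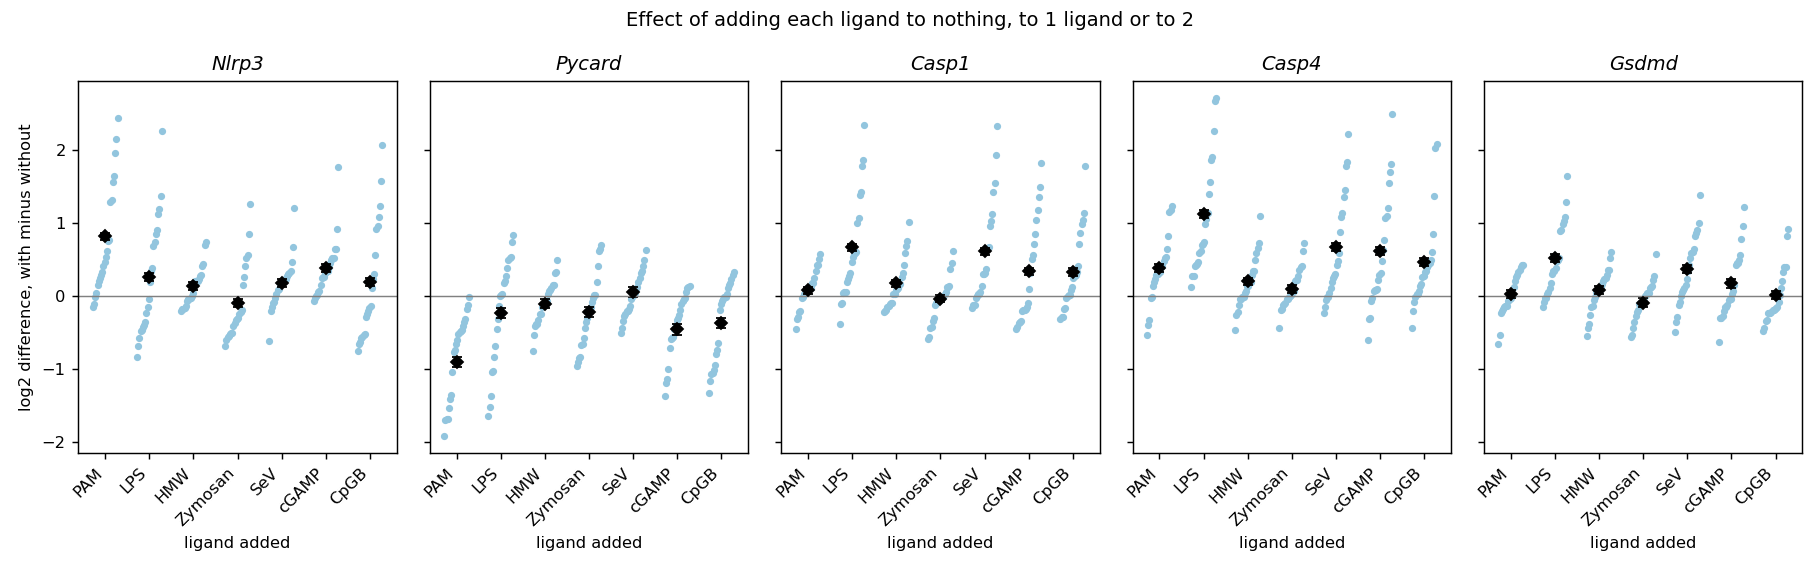
Difference in log2 CPM between groups with and without a ligand (vertical axis) for each ligand added (horizontal axis). Each pale point is 1 of the 22 matched sets, and the black diamond is the fitted mean effect with its SE, which is smaller than the symbol. All 22 Pycard points for PAM lie below 0, and all 22 Casp4 points for LPS lie above it.

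The ligands were also compared with each other by these mean effects, a test chosen after the data had been seen. Of 105 differences between 2 ligands, 13 were called higher and 11 lower, near the 8.83% and 9.05% of all genes. PAM raised Nlrp3 more than LPS did, by 0.55 (SE 0.06, adjusted p = 1.55e-16) and by 0.47 when thinned, short of the size, and lowered Pycard more than LPS did, by -0.67 (SE 0.09, adjusted p = 2.63e-11). LPS raised Casp4 more than PAM did, the difference of PAM minus LPS being -0.73 (SE 0.06, adjusted p = 8.99e-25), and Casp1 likewise (-0.59, SE 0.06). For Gsdmd, LPS exceeded Zymosan by 0.62 and CpGB by 0.52, the latter falling under 0.5 without any 1 of the 3 Ctrl libraries (0.48 to 0.49).

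Pairs of ligands were tested for whether their log2 effects add up, by taking the pair, subtracting each single ligand and adding back Ctrl, and called at an adjusted p under 0.05. Of 105 such interactions, 23 were called lower, which means that the pair fell short of the sum, and 2 higher, against 3.50% and 1.08% of all genes. For Casp1 the 6 called pairs were exactly the 6 pairs that can be formed from LPS, SeV, cGAMP and CpGB, from -2.52 (SE 0.40, adjusted p = 8.05e-08) for LPS with SeV to -1.72 for cGAMP with CpGB. For Casp4 the same 6 were called, from -2.52 for LPS with cGAMP to -1.78 for SeV with CpGB, and PAM with CpGB in addition (-1.96). Over 6 settings that left out libraries (each Ctrl library, or 1 replicate number of every group), Casp1 lost the call of cGAMP with CpGB in 1 (-1.37 without replicate 3). In the same 6 settings Casp4 lost SeV with CpGB in 4 (-1.10 without replicate 3), PAM with CpGB in 2, and LPS with CpGB (-1.28 without replicate 3) and cGAMP with CpGB in 1 each. In levels, Casp1 stood at 370 ± 48.5 CPM with LPS, 364 ± 10.97 with SeV and 376 ± 20.4 with both (mean ± SD, n = 3). For Nlrp3, 9 pairs were called, led by LPS with CpGB at -2.98 (SE 0.46, adjusted p = 2.43e-08), where the pair held 152, 198 and 118 CPM and each ligand alone had a mean of 222 CPM or more. Of these 9, LPS with CpGB, PAM with CpGB and PAM with LPS were called in all 6 settings. PAM with Zymosan, LPS with Zymosan and cGAMP with CpGB lost the call in 4 each, LPS with cGAMP in 3, and Zymosan with CpGB and SeV with cGAMP in 2 each. The Nlrp3 values without Ctrl replicate 3 ran down in size to -1.40 for LPS with Zymosan and for LPS with cGAMP. For Gsdmd, LPS with CpGB was called (-1.24, adjusted p = 0.0339), but it lost the call in 3 of the 6 settings, namely without Ctrl replicate 3 (-1.13, adjusted p = 0.115) and without replicate 1 or 3 of every group (-1.24 and -0.91, adjusted p of 0.109 and 0.366), and with RLE scaling (0.0557), library size alone (0.0729) and DESeq2 (0.0872). Every interaction against Ctrl carries the error of the shallow Ctrl libraries: 12 were called without the third library of each group, and 5 when every library was thinned to the lowest total, namely LPS with CpGB for Nlrp3 and, for Casp1, LPS with SeV, LPS with cGAMP, SeV with cGAMP and SeV with CpGB. Over all genes, 0.396% were called higher and 2.36% lower without the third library, and 1.49% and 4.26% when thinned. The 5 of 105 thinned calls were thus near the share of all genes.

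Pycard had the 2 positive interactions. PAM with LPS gave 1.53 (SE 0.44, adjusted p = 0.0092), where PAM, LPS and both together stood at 76.5 ± 13.8, 105 ± 31.2 and 93.4 ± 35.4 CPM, so the level with both lay between the levels with each. LPS with Zymosan gave 1.62 (SE 0.40, adjusted p = 0.00485), and Pycard stood at 168 CPM in that pair against 105 with LPS and 114 with Zymosan. Neither was called without replicate 3 of every group (0.88 and 1.20, adjusted p of 0.458 and 0.28) or without the filter on low counts (adjusted p of 0.0932 and 0.0532). Averaged over 6 contexts (no further ligand, or 1 of the other 5 in all 4 groups), which lowers the weight of Ctrl, 5 of the 105 were called higher and 30 lower, against 2.89% and 7.15% of all genes. On that average, LPS with cGAMP had the only called negative interaction of Pycard, at -0.86 (SE 0.19, adjusted p = 4.5e-05). Without further ligands the same interaction was -0.44 (SE 0.43, adjusted p = 0.611) and not called. The pair held 70.0, 83.0 and 63.2 CPM, below every cGAMP library and overlapping the LPS libraries.

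**Figure D4:**
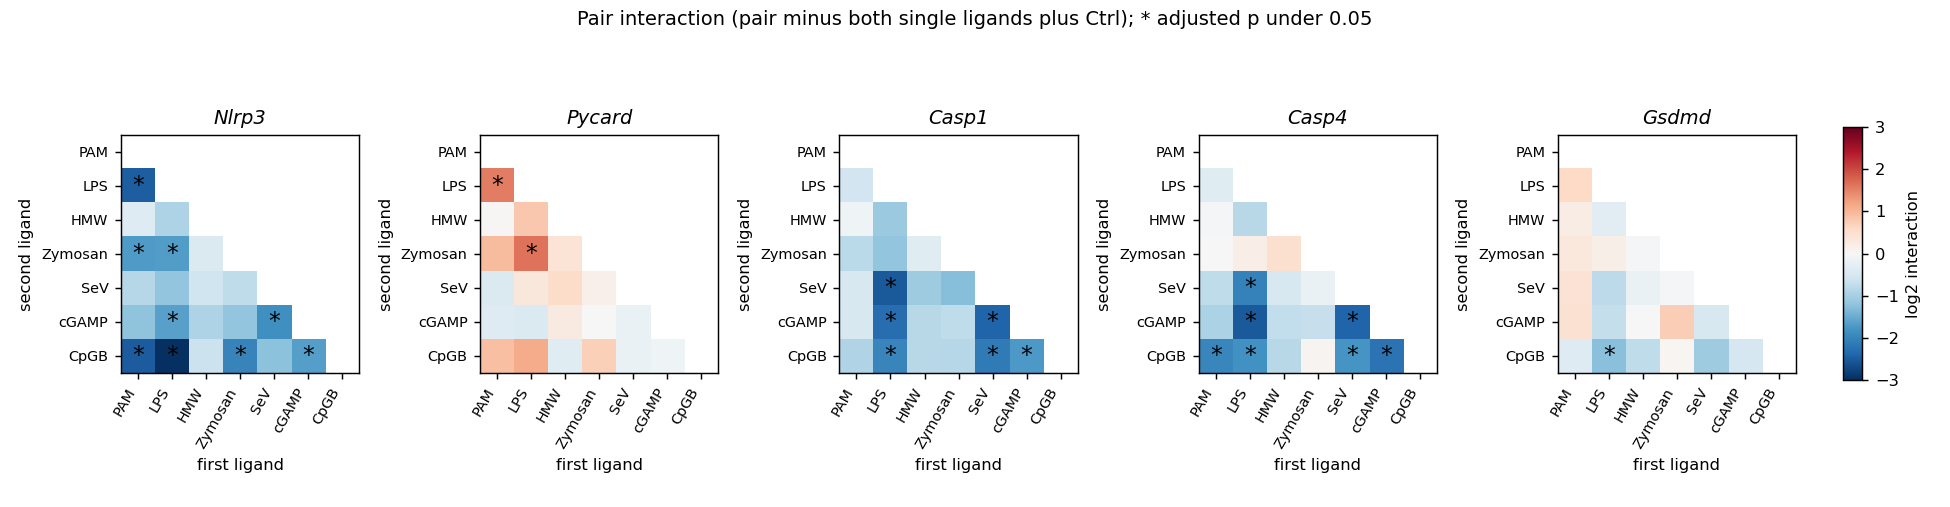
Pair interaction on the log2 scale (colour) for each pair of ligands (axes), 1 panel per gene, with a star where the adjusted p was under 0.05. The stars of Casp1 form a block among LPS, SeV, cGAMP and CpGB, that block recurs in Casp4, and Pycard alone has red stars.

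No gene rose above both single ligands of a pair, or above all 3 pairs of a triplet, by the rule that asks for a log2 difference of at least 1 from each part with the larger p adjusted. The count was 0 of 105 for pairs (background 0.353% higher and 0.0504% lower) and 0 of 175 for triplets (0.0115% higher and 0% lower) in edgeR, with 10 pairs higher and 2 lower, and 0 triplets higher and 1 lower, at an unadjusted p under 0.05. DESeq2 also called 0 of both. Casp4 with PAM and LPS came closest, exceeding LPS alone by 0.93 (SE 0.19, adjusted p = 0.000244), with 383, 582 and 574 CPM against 387, 249 and 224 CPM. Nlrp3 with PAM and cGAMP exceeded PAM alone by 0.64 (SE 0.20, adjusted p = 0.0424). Pycard with Zymosan, cGAMP and CpGB was lower than each of its pairs by at least 1.07, with an adjusted p of 1.

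Levels can also be described by the ligands held, in sets picked from the single-ligand results of these libraries, so that the grouping is no independent support for them. In the 8 groups without LPS, SeV, cGAMP or CpGB, the group means of Casp1 ran from 64.03 to 234 CPM with a median of 117. They had medians of 300.0, 326 and 296 CPM in the groups with 1, 2 or 3 of these ligands. Casp4 had medians of 106, 252, 310 and 316 CPM in the same order, and Gsdmd 95.2, 164, 182 and 164 CPM. For Nlrp3, the 15 groups without PAM, LPS and CpGB had a median of 157 CPM, the 33 groups with 1 of them 254 and the 15 with 2 of them 251. Pycard in these 3 classes had medians of 166, 81.5 and 76.9 CPM. The 1 group with all of PAM, LPS and CpGB did not continue this order, with Nlrp3 at 183 ± 8.46 CPM and Pycard at 116 ± 41.8 CPM (mean ± SD, n = 3).

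Across the 64 group means of log2 CPM, Casp1 and Casp4 varied together, with a Pearson correlation of 0.901 (Spearman 0.783), and Gsdmd went with both, at 0.827 and 0.815. Nlrp3 and Pycard ran opposite, at -0.744 (Spearman -0.734). Among the 4719 other tested genes, Pycard had the most negative correlation with Nlrp3, a feature singled out after its value was seen. The reverse did not hold, since the gene most opposite to Pycard was Cxcl1 (-0.835). These are descriptions, since the groups share ligands and each pair of values shares its libraries and their depth. The opposite course of Nlrp3 and Pycard was present in the 22 groups with PAM (-0.734) and in the 42 without (-0.609). Within the groups of the other ligands their correlation ranged from -0.824 with SeV to -0.535 with Zymosan, -0.519 with LPS and -0.482 with CpGB. The correlation of Casp1 with Casp4 was 0.495 within the 22 groups with LPS, 0.514 with SeV and 0.381 with cGAMP, and ranged from 0.846 to 0.927 within the groups with PAM, HMW, Zymosan or CpGB. In the 42 groups without a given ligand it ranged from 0.898 to 0.927. The correlations of Gsdmd with Casp1 and Casp4 were 0.019 and 0.046 within the 22 groups with cGAMP, 0.305 and 0.301 with LPS, and 0.663 and 0.519 with SeV, and 0.725 to 0.914 within the groups of the other 4 ligands. The genes most like each member were Fam102b, Prdx5 and Ptx3 for Nlrp3 (0.873, 0.826 and 0.812) and Ccr2, Crip1 and Abcg1 for Pycard (0.783, 0.769 and 0.747). Casp1 was closest to Mx1, Gbp4 and Gbp6 (0.950, 0.936 and 0.933), Casp4 to Ifi44, Xaf1 and Gbp3 (0.939, 0.938 and 0.937) and Gsdmd to Ifi44, Ms4a4c and Uba7 (0.872, 0.866 and 0.864). Mx1, Ifi44 and the Gbp genes are known as interferon-induced genes.

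**Figure D5:**
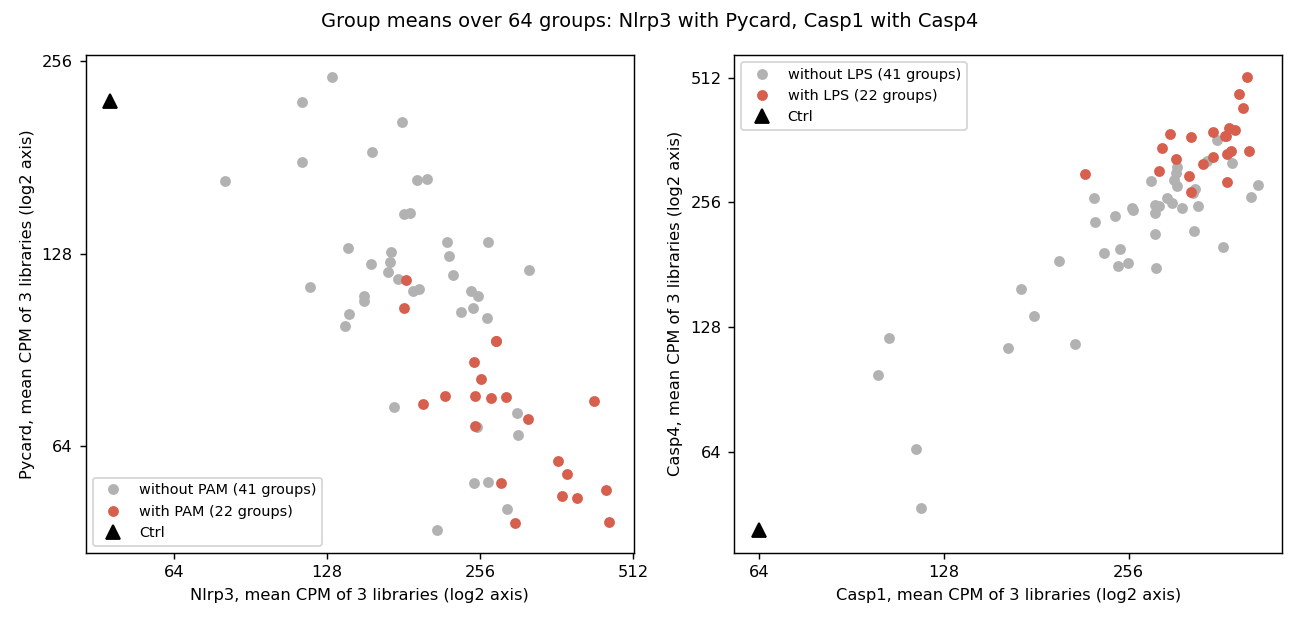
Group mean CPM of Nlrp3 against Pycard (left, groups with PAM in red) and of Casp1 against Casp4 (right, groups with LPS in red), each point 1 of 64 groups of 3 libraries, on log2 axes. Pycard falls as Nlrp3 rises (r = -0.744), with Ctrl at the upper left, and Casp4 rises with Casp1 (r = 0.901).

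Other genes of the pathway came from a list of 38, of which 37 had a row and 24 passed the filter. Against Ctrl, 14 of the 24 were called higher with LPS, 12 with SeV, 11 with cGAMP, 11 with CpGB, 8 with PAM, 3 with Zymosan and 2 with HMW, and 1 was called lower, with CpGB. The share of all genes called higher was 14.6% with LPS, 11.7% with cGAMP, 10.8% with CpGB, 10.5% with SeV, 8.01% with PAM, 4.43% with Zymosan and 0.953% with HMW, and 6.27% were called lower with CpGB. The median log2 fold change of the 24 was 2.04 with LPS and 0.78 with PAM, where all tested genes had -0.06 and 0.03. By the mean effect of adding a ligand, 15 rose and 2 fell with LPS, 12 rose and 3 fell with cGAMP, 12 rose with SeV, 6 rose and 1 fell with CpGB, 5 rose and 1 fell with PAM, 1 rose and 2 fell with Zymosan, and with HMW none reached a mean difference of 0.5, although 12 of the 24 had an adjusted p under 0.05 in edgeR. By adjusted p alone, 21.1% of all genes were higher and 19.2% lower over all ligands together. That share is not given for HMW alone, so the 12 cannot be set against it. The shares that follow are for the rule with the size threshold. Over all genes the share that rose was 14.9% with LPS, 14.3% with cGAMP, 8.58% with Zymosan, 7.90% with SeV, 6.53% with PAM, 6.12% with CpGB and 0.297% with HMW. The share that fell was 11.0% with LPS, 10.3% with cGAMP, 5.89% with PAM, 5.06% with CpGB and 3.81% with Zymosan.

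Among the cytokine genes of the pathway, Il1b and Il1a had their largest mean effect with PAM, and Il18 had effects of similar size with LPS, PAM and CpGB, whose differences were not tested. Il1b, whose product caspase-1 matures, stood at 313 ± 51.4 CPM in Ctrl and reached 11140 ± 440 CPM with PAM and HMW. Adding PAM raised it by 2.44 (SE 0.03), CpGB by 1.62 and LPS by 1.36, and the mean effect of cGAMP was -0.17. Il1a, a related cytokine gene, rose by 2.22 with PAM and reached 6006 ± 289 CPM with PAM, LPS and cGAMP. Il18, the other caspase-1 substrate, rose with LPS (1.09, SE 0.09), PAM (0.99) and CpGB (0.96), and fell with Zymosan (-0.63, SE 0.10, adjusted p = 3.64e-08). The GTPases that open bacteria and their vacuoles in the cytosol rose with LPS, cGAMP and SeV. Gbp5 rose by 1.45 with LPS, 1.29 with cGAMP, 1.02 with SeV and 0.52 with CpGB, Gbp2 by 1.19, 0.98 and 0.88, and Irgb10 (listed as Gm12250) by 1.20, 1.19 and 1.06. Mefv, which encodes the sensor pyrin, rose with PAM (1.32, SE 0.16) and with LPS and CpGB (0.72 each), and fell with cGAMP (-0.98, SE 0.22) and Zymosan (-0.65, SE 0.21).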

How the data were processed

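The authors deposited whole-number UMI counts per gene symbol for 64 groups of 3 libraries, not normalized. Alignment with BWA 0.7.15 to mm10 is named in the submitters' processing notes; the annotation, the collapsing of UMIs and the treatment of multi-mapping reads are not given in the sources used here. From these deposited counts, edgeR 4.0.16 (R 4.3.3) kept 4720 genes that passed its expression filter by group, holding 95.7% of all UMIs. Libraries were scaled by TMM, and 1 quasi-likelihood model with a term for each of the 64 groups was fitted (128 residual degrees of freedom, common biological coefficient of variation 10.3%). P-values were two-sided and, in the main fit, adjusted by the Benjamini-Hochberg method over all 4720 genes within each contrast. Alternatives with another filter, fewer libraries or thinned counts kept other numbers of genes, and their p-values were adjusted over those genes. CPM values use the TMM-scaled totals of tested genes, and log2 CPM a prior count of 2. SEs are those implied by the F statistic. For a pair or triplet against its parts, the larger p-value was adjusted. Nlrc4 intervals are exact at the 95% level and cover counting error only. The 6 genes, the gene lists and the tests were chosen with earlier results of these data known. The pathway genes named are those with the 6 largest mean effects of adding a ligand, with Il1b and Il18; the genes named as most similar are the 3 with the highest correlation. No pair of libraries held identical values. The steps were tested on simulated counts. Alternatives were another scaling (RLE, or library size alone), other filters, DESeq2 1.42.0, a replicate block, thinned libraries, single libraries left out and other thresholds.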

Additional observations from a re-analysis of the deposited data

Results flagged for a closer look

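The results below are those in which the effect of a ligand differed between cells with and without another ligand, by the test of the interaction between the pair in edgeR. Each value is the log2 difference of the pair from the sum of both single effects. For Nlrp3 it was -2.98 for LPS with CpGB, -2.51 for PAM with CpGB, -2.47 for PAM with LPS, -1.997 for Zymosan with CpGB and -1.84 for SeV with cGAMP. It was -1.69 for PAM with Zymosan, -1.67 for LPS with Zymosan, -1.65 for cGAMP with CpGB and -1.63 for LPS with cGAMP. For Casp1 the values were -2.52 for LPS with SeV, -2.41 for SeV with cGAMP, -2.29 for LPS with cGAMP, -2.12 for SeV with CpGB, -1.98 for LPS with CpGB and -1.72 for cGAMP with CpGB. For Casp4 they were -2.52 for LPS with cGAMP, -2.39 for SeV with cGAMP, -2.22 for cGAMP with CpGB, -2.02 for LPS with SeV, -1.96 for PAM with CpGB, -1.81 for LPS with CpGB and -1.78 for SeV with CpGB. Gsdmd had -1.24 for LPS with CpGB. Pycard had the only positive values, 1.53 for PAM with LPS and 1.62 for LPS with Zymosan. All 25 share the 3 Ctrl libraries.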

How the results depend on the processing

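Of 126 recomputed counts of calls, over all kinds of comparison and settings, 118 stayed within 1.5 times. Without a size threshold, 24 mean effects of adding a ligand were called in place of 8, 76 differences between mean effects in place of 24, and 2 pairs beyond both single ligands in place of 0. Over all genes that rule called 21.1% higher and 19.2% lower for mean effects, 20.6% and 19.9% for differences, and 0.805% and 0.0999% for pairs. With libraries thinned to the lowest total, 17 differences between single ligands were called in place of 43, 5 interactions in place of 25, and 1 pair beyond both. Over all genes, thinning gave 7.48% higher and 8.47% lower for differences, 1.49% and 4.26% for interactions, and 0.309% and 0.0493% for pairs. The thinned counts of differences and interactions for the 5 genes lay near those shares. With replicates left out, interactions ranged from 12 to 26 calls and pairs beyond both from 0 to 1. Over all genes in those settings, interactions ranged from 0.384% to 0.665% higher and from 2.36% to 3.24% lower. Pairs ranged from 0.199% to 0.297% higher and from 0.0174% to 0.0477% lower. The replicate numbers were not taken as pairs, since the median correlation between libraries of the same number was 0.0081 and 0.116% of such pairs were over 0.1. A hint of pairing was that 58.3% of libraries correlated best with a library of their own number, above an even share among 3 numbers. With the replicate block, 19 single-ligand, 228 combination, 8 mean-effect and 26 interaction calls were made. The shares over all genes were then 8.7% higher and 4.99% lower, 15% and 9.57%, 8.4% and 5.54%, and 1.16% and 3.59%, in that order.

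Of the values that changed sign, Gsdmd with LPS (1.18) and its interaction of LPS with CpGB (-1.24) had been called. Pycard with SeV was -0.11 with RLE scaling, -0.18 with library size alone, -0.62 thinned and -0.11 with DESeq2, and -0.047 to 0.22 with replicates left out. Pycard with cGAMP was 0.12 without a filter and 0.073 with a minimum mean of 1 count, and -0.14 to 0.18 with replicates left out. Adding SeV changed Pycard by -0.014 with library size alone and -0.034 thinned. Adding PAM changed Casp1 by -0.046 with library size alone and -0.051 thinned. Casp4 with Zymosan was -0.47 thinned and -0.31 to 1.13 with replicates left out. Gsdmd with PAM was 0.077 without a filter and -0.50 to 0.51 with replicates left out, and with Zymosan 0.019 and -0.37 to 0.099. Adding PAM changed Gsdmd by -0.0077 with RLE scaling, -0.097 with library size alone, -0.0088 with DESeq2 and -0.041 to 0.070 with replicates left out. Adding CpGB changed it by -0.053 with library size alone, -0.070 thinned, -0.032 without Ctrl and -0.042 to 0.066 with replicates left out. Thinned, Gsdmd stood at -0.0056 with LPS, -0.21 with HMW, -0.15 with cGAMP and -0.15 with CpGB, and its interaction of LPS and CpGB at 0.27. Thinning leaves fewer molecules per library, and each thinned value comes from a single random draw. The cause of the other changes was not tested. Depth in Ctrl limits every comparison against it.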
